A study of Mus musculus with 22 samples.

Results

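Lipopolysaccharide (LPS), a cell wall component of Gram-negative bacteria, was compared with medium alone on mouse aortas kept ex vivo for 4 h. The comparison holds 6 of the series' 22 arrays: the 3 whose sample titles name LPS against the 3 whose titles name DMEM, the culture medium, with all genes in view. Both groups came from C57BL/6 mice labelled wild-type, on chow, whose age the labels do not give. Opened aortas lay in wells of DMEM with 1% fetal bovine serum at 37 °C and 5% CO2, and the LPS wells held 4 ng/mL. Endothelial cells were then scraped from the inner surface, and their RNA was amplified and hybridised. For comparison, 3 arrays came from aortas given oxidized low-density lipoprotein (oxLDL) and 3 from aortas given the oxidized phospholipid mixture oxPAPC, each at 50 µg/mL in the same medium for the same time. A further 6 arrays came from intima of 4-week-old wild-type mice that was never incubated, here called fresh.

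LPS binds the receptor complex of Tlr4, Ly96 and Cd14 on endothelial and immune cells. One adaptor branch releases NF-kB, which drives chemokine, cytokine and adhesion genes and also the inhibitors that switch it off. The other branch activates interferon regulatory factors, and the interferon made then acts on neighbouring cells to raise a large set of antiviral genes. In arteries the NF-kB programme is known for recruiting leukocytes to the vessel wall.

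Levels are log2 signals, so a difference of 1 is a doubling of signal. Every difference is LPS minus medium with a standard error (±) from limma unless stated otherwise, and a gene was called at a Benjamini-Hochberg adjusted p under 0.05. Each gene is read on its brightest probe set, and p-values of further probe sets come from a limma fit of all probe sets with a single symbol. The labels do not say whether the arrays of a group came from separate animals, so p-values measure only the spread between these arrays, and 3 arrays a group limit the precision. Between arrays of a group, Pearson's r across the tested genes was 0.966 to 0.979 for medium and 0.965 to 0.978 for LPS, against 0.942 to 0.953 between the groups. These correlations are across genes, which are not independent replicates.

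The scraped cells carried endothelial markers, and marker means of endothelium and of other layers differed between the groups. The endothelial mean was 8.53 to 8.66 on the medium arrays and 7.98 to 8.36 on the LPS arrays, without overlap. Of 17 endothelial markers 16 averaged above the 40th percentile of the arrays in both groups, and Pecam1, the endothelial adhesion molecule also known as CD31, read 11.30, 11.30 and 11.37 on the medium arrays and 11.46, 11.36 and 11.25 on the LPS arrays. The mean of the 14 smooth muscle markers was 7.27, 7.65 and 8.30 on medium replicates 9, 10 and 11, and 8.40, 8.36 and 8.75 on LPS replicates 3, 4 and 10. All 3 LPS arrays therefore lay above all 3 medium arrays, and the fresh wild-type arrays lay between 8.57 and 9.52. The 6 mesothelial markers, genes of the cell layer that lines body cavities, moved the other way. Their mean was 6.26, 8.07 and 5.68 on the medium arrays and 4.89, 4.69 and 4.73 on the LPS arrays. Medium replicate 10 stood apart on them, with the keratin gene Krt8 at 8.21 against 4.87 and 4.40 on the other medium arrays. All 18 macrophage and dendritic cell markers together averaged 5.87 to 6.01 on medium and 5.16 to 5.69 on LPS, again without overlap. Neutrophil, lymphocyte and adipocyte markers averaged between 3.40 and 4.01 in both groups, below the 40th percentile of every array. In bulk RNA, fewer cells of a type and less RNA per cell cannot be told apart.

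**Figure D1:**
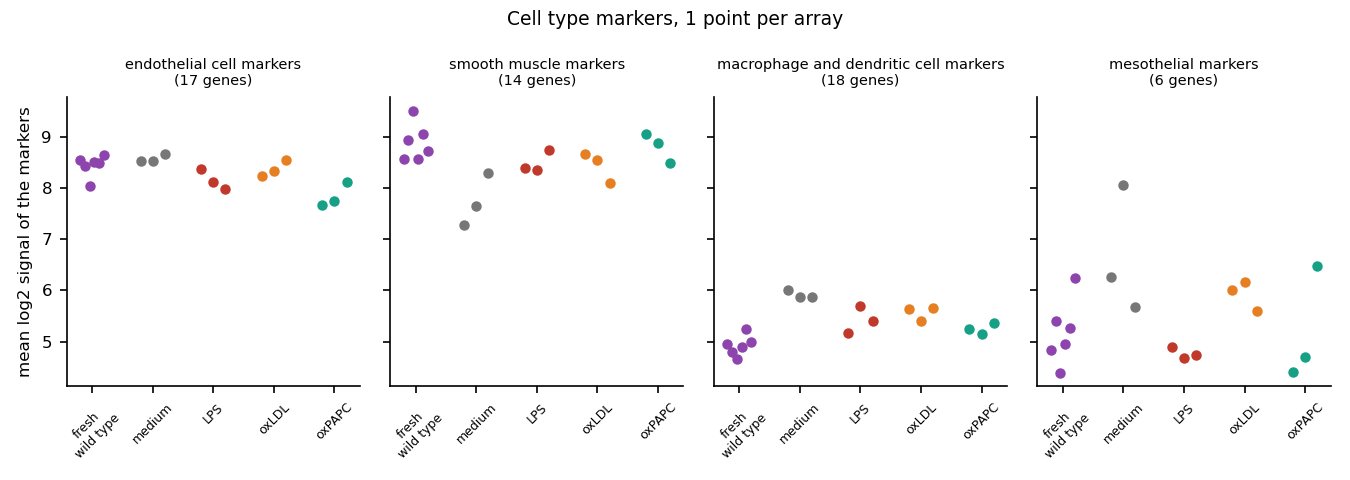
Mean log2 signal of each cell type marker list (y axis) on every wild-type array (1 point per array), by group: fresh, medium, LPS, oxLDL and oxPAPC. The smooth muscle mean was 7.27 to 8.30 on the medium arrays and 8.36 to 8.75 on the LPS arrays, and medium replicate 10 stood highest for the mesothelial markers (8.07).

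Interferon-induced antiviral genes, chemokines and interleukin genes were among those higher with LPS, and a larger number of genes was lower. Of 7550 genes tested, 683 were called (9.05%): 254 were higher (3.36%) and 429 lower (5.68%). These shares are to be set beside the list counts below, and a count near them says little about its list. Among called genes 80 rose and 131 fell by at least 1 on the log2 scale, 12 rose and 7 fell by at least 2, and 7 rose and 1 fell by at least 3. The LPS arrays lay wholly above the medium arrays for 1185 genes (15.7%) and wholly below for 1445 (19.1%). The balance of higher to lower calls depends on the scaling. With cyclic loess the split was 321 higher and 344 lower, and with each array centred on its median it was 435 higher and 273 lower, as the median difference over all genes moved from −0.03 to 0.0046 and 0.07. Smaller falls are therefore to be read relative to those medians.

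**Figure D2:**
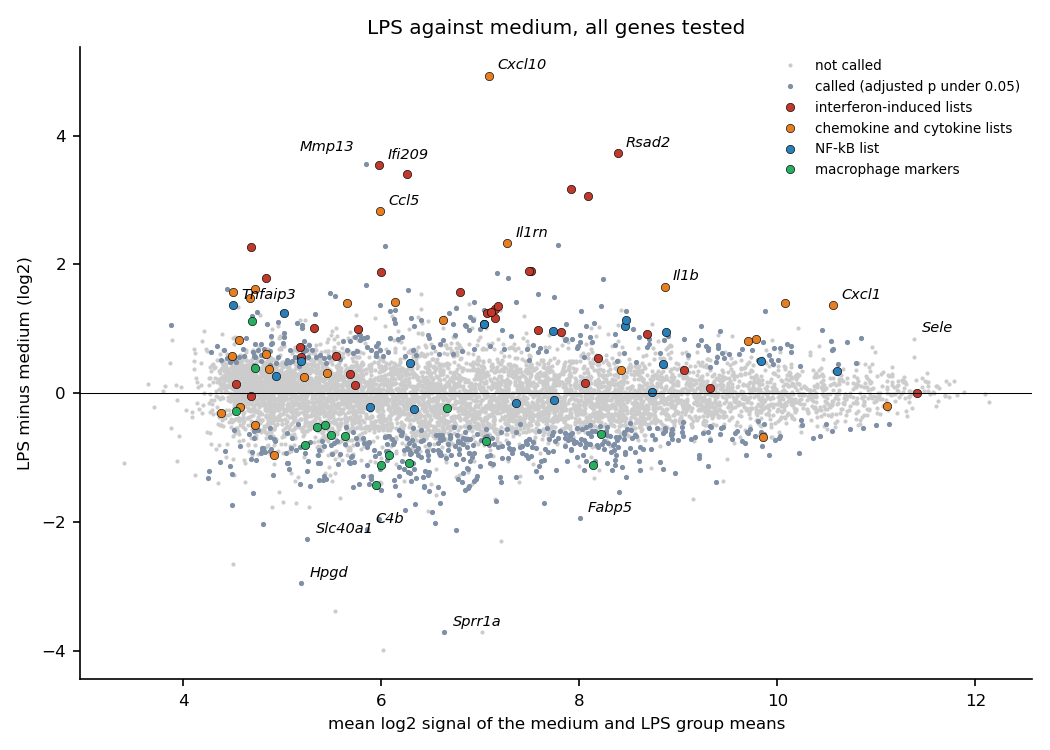
Difference between LPS and medium (y axis, log2) against the mean log2 signal of both groups (x axis) for the 7550 tested genes. Coloured points are members of the interferon-induced, chemokine and cytokine, NF-kB and macrophage marker lists, and Cxcl10 stands highest at 4.93.

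The largest rise was that of Cxcl10, a chemokine that draws activated T cells and is itself induced by interferon and NF-kB. It read 4.89, 4.92 and 4.06 on the medium arrays and 10.07, 9.58 and 9.01 on the LPS arrays. The groups were far apart, and medium lay at the 40th percentile of its arrays, so the size rests on a reference near background. The difference was 4.93 ± 0.34 (30.5-fold, limma adjusted p = 1.93e-05), and it was called whichever single array was left out.

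Promoter windows of the genes with the largest called rises are shown here because rises of interferon and NF-kB target genes led the comparison. Each window runs from 250 bases before to 50 bases after an annotated start, from the RefSeq table of mouse build GRCm38.p6. The motifs searched on both strands were the core of the interferon-stimulated response element (ISRE), spelled GAAA, any 2 bases, GAAA, and the kappa B site bound by NF-kB, spelled GGG, any 3 bases, TTCC. Shown are the first 5 genes in order of rise that hold either match, which capitals mark. A match on the reverse strand appears as its reverse complement. The windows are chr5:92348840-92349139 (minus strand) for Cxcl10, chr12:26456403-26456702 (minus strand) for Rsad2, chr9:7272264-7272563 (plus strand) for Mmp13, chr1:173630609-173630908 (plus strand) for Ifi209 and chr19:34550444-34550743 (plus strand) for Ifit2.
Cxcl10: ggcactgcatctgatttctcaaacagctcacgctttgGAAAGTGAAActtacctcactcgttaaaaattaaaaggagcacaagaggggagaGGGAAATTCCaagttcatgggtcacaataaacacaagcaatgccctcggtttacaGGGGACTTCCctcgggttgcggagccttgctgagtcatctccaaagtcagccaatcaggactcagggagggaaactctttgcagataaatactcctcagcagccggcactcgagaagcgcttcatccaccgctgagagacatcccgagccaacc
Rsad2: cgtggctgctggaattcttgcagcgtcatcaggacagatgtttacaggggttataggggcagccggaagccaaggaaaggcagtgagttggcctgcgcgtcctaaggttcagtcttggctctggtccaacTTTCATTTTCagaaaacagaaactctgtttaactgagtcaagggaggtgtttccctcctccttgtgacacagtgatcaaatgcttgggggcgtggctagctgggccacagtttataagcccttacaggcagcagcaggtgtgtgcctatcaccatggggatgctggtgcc
Mmp13: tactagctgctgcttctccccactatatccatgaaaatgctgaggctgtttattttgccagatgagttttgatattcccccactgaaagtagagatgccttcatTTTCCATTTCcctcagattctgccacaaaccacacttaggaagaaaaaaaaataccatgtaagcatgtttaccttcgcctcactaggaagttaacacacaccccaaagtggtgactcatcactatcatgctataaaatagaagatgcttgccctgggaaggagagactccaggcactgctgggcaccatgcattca
Ifi209: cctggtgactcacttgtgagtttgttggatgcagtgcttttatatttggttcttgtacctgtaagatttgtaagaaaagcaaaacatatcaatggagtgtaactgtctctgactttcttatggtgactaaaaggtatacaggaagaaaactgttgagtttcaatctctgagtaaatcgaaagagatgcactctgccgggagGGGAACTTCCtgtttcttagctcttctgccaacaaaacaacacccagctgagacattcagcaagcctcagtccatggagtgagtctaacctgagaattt
Ifit2: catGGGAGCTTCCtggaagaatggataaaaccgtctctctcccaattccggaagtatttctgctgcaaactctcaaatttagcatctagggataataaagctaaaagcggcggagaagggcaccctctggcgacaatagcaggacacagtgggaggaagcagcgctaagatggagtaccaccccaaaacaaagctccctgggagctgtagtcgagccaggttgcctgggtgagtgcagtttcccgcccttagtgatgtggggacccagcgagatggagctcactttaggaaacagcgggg
Cxcl10 held 1 ISRE match at positions −213 to −204 from its start and 2 kappa B matches, at −159 to −150 and at −104 to −95. Rsad2 held 1 ISRE match at −120 to −111, and Mmp13 held 1 at −146 to −137. Ifi209 and Ifit2 each held 1 kappa B match and no ISRE match in these windows, which says only that the searched letters are not there.

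Across the genes called higher the ISRE and kappa B matches, and those of the AP-1 site (TGANTCA), were more frequent than in promoters at large. This is given as a description without a test. Of the 25 largest rises 18 had a window in the table, with 24 windows in all. An ISRE match lay in 37.5% of those windows, against 3.19% of the 7932 windows of tested genes and 3.44% of all 32851 windows in the table. A kappa B match lay in 29.2% of them, against 6.37% and 5.56%, and an AP-1 match in 33.3%, against 5.89% and 7.81%. In windows of the 25 largest falls AP-1 lay in 18.5%, and ISRE and kappa B in 3.7% each. Among the 257 windows of all genes called higher the shares were 8.95% for ISRE and 14% for kappa B, and among the 474 windows of genes called lower both were 4.64%. Ifit1 and Ifit3 each held 2 ISRE matches. Il1rn held a kappa B match in each of its 3 windows. The gamma-activated site TTCNNNGAA lay in 8.56% of windows of genes called higher, 6.66% of those tested and 8.3% of all windows in the table, so it was no more frequent than in the table as a whole. The AP-1 site TGANTCA lay in 10.9%, 5.89% and 7.81%. The kappa B and gamma-activated matches of Ifit2 overlap.

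**Figure D3:**
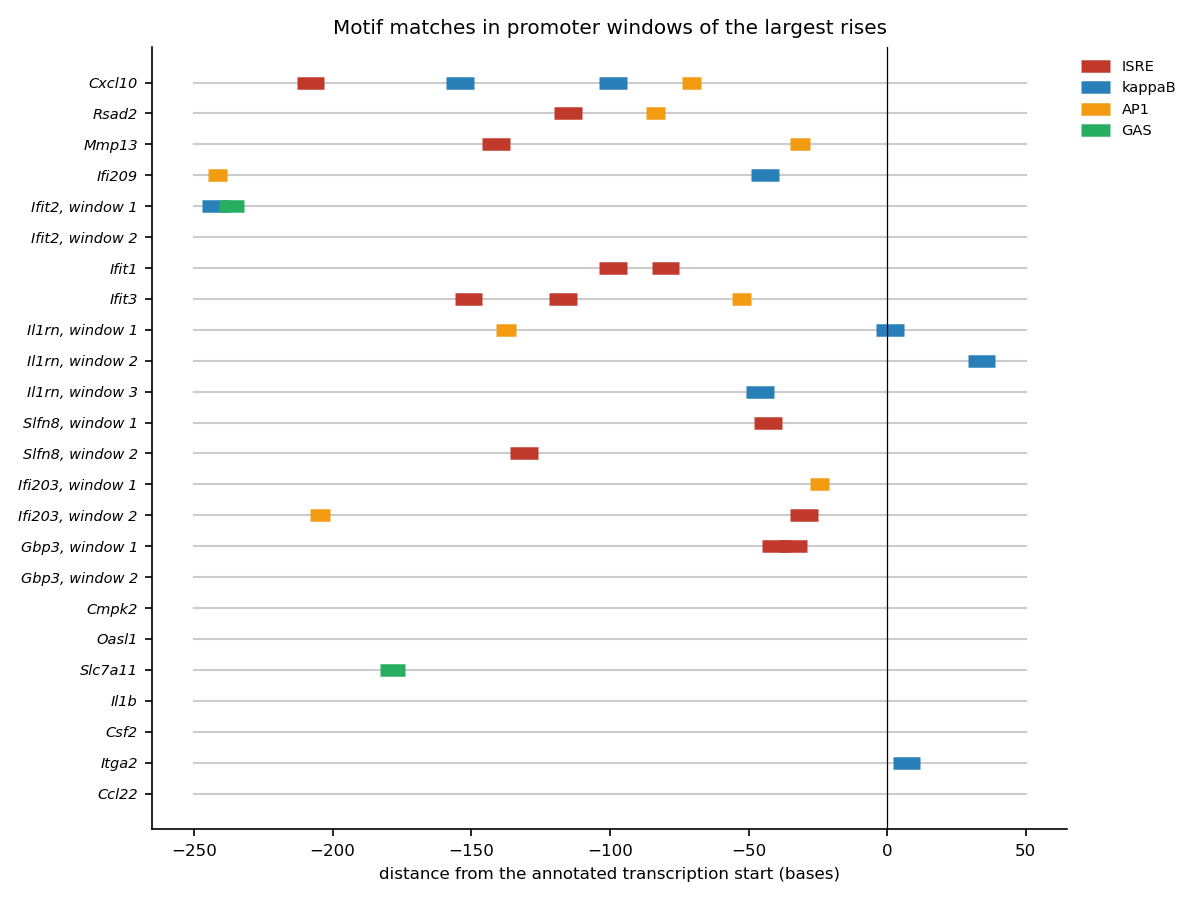
Positions of ISRE, kappa B, AP-1 and GAS (gamma-activated site) matches relative to the annotated start (x axis, bases) in the 24 promoter windows of the largest rises, 1 line per window. ISRE matches appear before the start in windows of Cxcl10, Rsad2, Mmp13, Ifit1, Ifit3, Slfn8, Ifi203 and Gbp3.

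Antiviral effector genes formed the group with the highest median difference. Of 28 measured members 24 passed the level filter, 12 rose and none fell, with a median of 1.21 against −0.03 over all tested genes. A member at background in medium can pass that filter through its LPS level, so counts over tested members describe them and are not support. Without the filter the median was 1.02. Rsad2, which encodes viperin, an enzyme that blocks viral replication, read 6.91, 6.76 and 5.90 on medium and 10.82, 10.37 and 9.56 on LPS. The groups were separated by a wide gap, and the rise was 3.73 ± 0.38 (adjusted p = 0.00041 by limma). Its other 2 probe sets rose by 4.07 ± 0.35 and 4.09 ± 0.36.

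The Ifit genes, whose products bind foreign RNA, rose together. Ifit1 read 6.63, 6.84 and 5.54 on medium against 10.21, 9.34 and 8.96 on LPS, a rise of 3.17 ± 0.41 (limma adjusted p = 0.00187). Ifit2 read 3.60, 5.37 and 4.71 against 8.46, 8.39 and 7.02, a rise of 3.40 ± 0.43 (limma adjusted p = 0.00156). Ifit3 read 6.69, 7.12 and 5.87 against 10.44, 9.63 and 8.78, a rise of 3.06 ± 0.41 (limma adjusted p = 0.00204). In each of the 3 genes every LPS array exceeded every medium array, and each call was kept whichever array was left out. Mx1, a GTPase that traps viral particles, read 3.45, 3.65 and 3.54 on medium, below the 40th percentile, and 6.37, 6.47 and 4.63 on LPS. LPS replicate 10 was the lowest of the LPS arrays, and the rise was 2.27 ± 0.37 (limma adjusted p = 0.00551). Oasl1, of the oligoadenylate synthetase-like family, rose by 1.79 ± 0.33, and Cmpk2, a mitochondrial nucleotide kinase, by 1.88 ± 0.34. Ifih1, which encodes the RNA sensor MDA5, rose by 1.25 ± 0.26, and Samhd1, which depletes nucleotides needed by viruses, by 0.96 ± 0.20.

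Genes of the interferon-inducible p200 family, whose proteins bind DNA, also rose. Ifi209 read 4.36, 4.40 and 3.85 on medium, below the 40th percentile, and 7.48, 8.28 and 7.49 on LPS. The rise was 3.55 ± 0.24 (limma adjusted p = 1.93e-05), and its size rests on background. Ifi203 rose by 1.90 ± 0.38 and Ifi205 by 1.57 ± 0.34. These genes are related members of 1 family, so probes may share signal between them. Slfn8, of the Schlafen family, read 4.93, 5.27 and 4.50 against 7.37, 7.08 and 7.08, a rise of 2.28 ± 0.25 (limma adjusted p = 0.000817). Of 9 tested interferon-induced GTPases, a list that holds guanylate-binding proteins and the immunity-related GTPases, 1 was called higher, with a median of 0.91. All 9 differences were above 0. That gene, Gbp3, whose family attacks intracellular pathogens, read 6.69, 7.22 and 5.73 against 9.16, 8.51 and 7.66, a rise of 1.90 ± 0.44 (limma adjusted p = 0.0245) that was called in 2 of the 6 fits that left out 1 array. Gbp10, outside the list, rose by 2.31 ± 0.41. Gbp7 gave different calls by probe set: the brightest differed by 1.25 ± 0.49 (limma adjusted p = 0.118), and the other rose by 1.66 ± 0.19 (limma adjusted p = 0.000849).

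**Figure D4:**
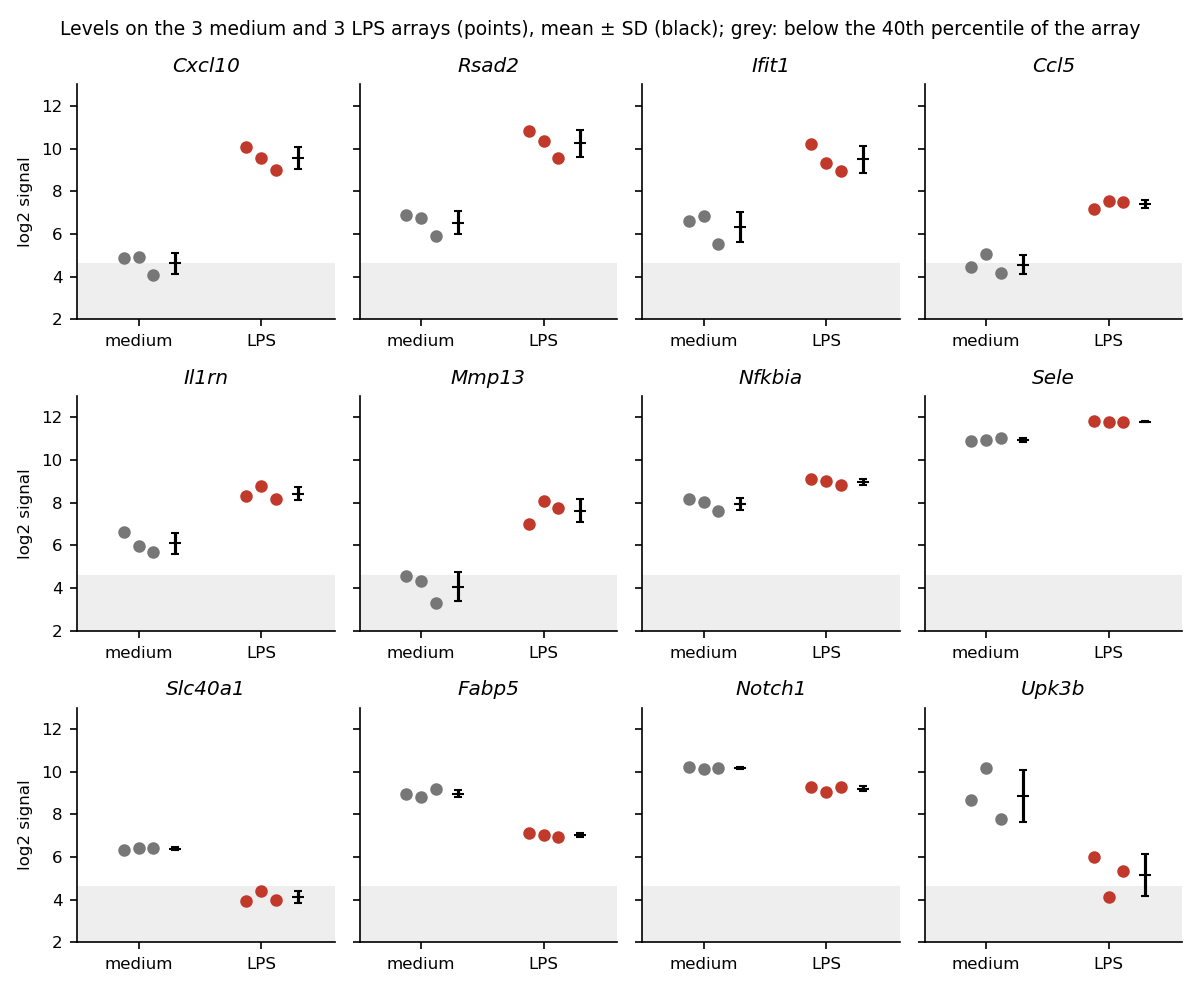
Log2 signal (y axis) of 12 genes on the 3 medium and the 3 LPS arrays (points), with the mean and SD of each group in black and the range below the 40th percentile of the arrays in grey. Cxcl10 rose from 4.06 to 4.92 on medium to 9.01 to 10.07 on LPS, and Slc40a1 fell from 6.31 to 6.43 to 3.93 to 4.43.

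In the list of interferons, their receptors and the factors that drive them, no tested gene was called on its brightest probe set. Of 13 measured members of that list 10 were tested with a median of 0.07, and limma called none of them. Over all tested genes 9.05% were called, so none of 10 is near that share and says little about the list. Alternatives did give calls: 1 higher and 1 lower with cyclic loess, and 1 higher with median centring, with the smooth muscle covariate and with the LPS and medium arrays alone. A second probe set of Irf3, the factor that drives interferon beta, fell by 0.65 ± 0.16 (limma adjusted p = 0.0342). Irf1, a transcription factor induced by interferon and NF-kB, read 8.64, 8.49 and 8.55 on medium and 9.54, 9.28 and 9.05 on LPS. The groups did not overlap, but the difference of 0.73 ± 0.23 did not pass (limma adjusted p = 0.0678). Ifnb1, which encodes interferon beta, lay below the level filter, at 3.26, 3.60 and 3.36 on medium and 3.54, 4.02 and 4.12 on LPS.

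Several chemokines that recruit neutrophils, monocytes and T cells rose. Of 9 tested CXC and CX3C members 4 were called higher and none lower (median 0.81), and of 10 tested CC members 5 were higher and none lower (median 0.70). Members near background in medium can pass the level filter through their LPS level, so these counts describe the tested members only. Without the filter the medians were 0.27 and 0.25. Ccl5, also known as RANTES, a chemokine for T cells and monocytes, read 4.44, 5.07 and 4.20 on medium and 7.16, 7.53 and 7.50 on LPS. Medium averaged at the 40th percentile and LPS was tightly grouped, with a rise of 2.83 ± 0.23 (limma adjusted p = 8.41e-05). The neutrophil chemokines Cxcl1 and Cxcl2 were already well above background in medium. Cxcl1 read 10.16, 10.23 and 9.26 against 11.33, 11.19 and 11.22, a rise of 1.37 ± 0.24 (limma adjusted p = 0.0087). Cxcl2 read 9.41, 9.54 and 9.19 against 10.66, 10.72 and 10.95, a rise of 1.40 ± 0.14 (limma adjusted p = 0.000392). Neither gene overlapped between the groups. Cxcl16, a membrane-bound chemokine and scavenger receptor, rose by 0.81 ± 0.17. Ccl22 rose by 1.57 ± 0.19, Ccl9 by 1.08 ± 0.25 and Ccl3 by 0.82 ± 0.16, Ccl22 and Ccl3 from levels below the 40th percentile. Ccrl2, a receptor that presents chemerin without signalling, rose by 1.41 ± 0.35. Ccl2, the main monocyte chemokine, overlapped between the groups at 4.41, 5.75 and 4.75 on medium and 5.01, 4.09 and 4.32 on LPS (difference −0.49 ± 0.34, limma adjusted p = 0.367).

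Genes of the interleukin-1 family and colony-stimulating factors were among those that rose. Of 19 measured cytokines 9 were tested, 5 rose and none fell, with a median of 1.13. Without the level filter, which a member can pass through its LPS level, the median was 0.60. Il1rn, which encodes the antagonist of the interleukin-1 receptor, read 6.64, 5.98 and 5.70 on medium and 8.31, 8.79 and 8.20 on LPS, a rise of 2.33 ± 0.29 (limma adjusted p = 0.00132). Il1b, the inflammatory ligand of that receptor, read 8.46, 8.14 and 7.49 against 9.58, 9.89 and 9.58, a rise of 1.65 ± 0.28 (limma adjusted p = 0.00651). Ligand and antagonist were both higher on every LPS array. Csf2, the growth factor GM-CSF, rose by 1.62 ± 0.34, with LPS replicate 3 at 6.48 and the other LPS arrays at 5.01 and 5.11. Il12b, a subunit of interleukins 12 and 23, rose by 1.48 ± 0.17 from below the 40th percentile, and Csf1, the macrophage growth factor, by 0.84 ± 0.21. Il6 did not pass the test. It read 6.87, 6.18 and 5.13 on medium and 7.86, 6.82 and 6.90 on LPS, with overlap (1.13 ± 0.67, limma adjusted p = 0.295). Tnf lay below the level filter, at 4.22, 3.96 and 4.00 against 4.51, 5.11 and 4.37. Among 19 tested cytokine receptors 3 rose and 2 fell: Il15ra rose by 1.04 ± 0.20, while Lifr, the receptor of leukaemia inhibitory factor, fell by 0.84 ± 0.14.

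Of 18 tested NF-kB subunits and feedback inhibitors 8 rose and none fell, with a median of 0.49. Nfkbia, which encodes the inhibitor IkB-alpha and is a direct NF-kB target, read 8.16, 8.04 and 7.63 on medium and 9.12, 9.01 and 8.83 on LPS, a rise of 1.04 ± 0.18 (limma adjusted p = 0.00869). Tnfaip3, which encodes the deubiquitinase A20, another brake on NF-kB, read 3.70, 3.69 and 4.07 against 4.97, 5.57 and 5.04, a rise of 1.37 ± 0.22 (limma adjusted p = 0.00551). Rel, an NF-kB subunit, read 7.24, 7.40 and 7.11 against 8.24, 7.94 and 8.48, a rise of 0.97 ± 0.15 (limma adjusted p = 0.00517). These 3 were called whichever array was left out. Nfkbie rose by 1.25 ± 0.27, Tnip1 by 1.14 ± 0.28 and Traf1 by 1.07 ± 0.25. Birc3, an inhibitor of apoptosis, differed by 0.94 ± 0.29 on its brightest probe set (limma adjusted p = 0.0601) and rose by 1.27 ± 0.26 on another (limma adjusted p = 0.0165). A second probe set of Nfkbiz, an atypical IkB protein, rose by 0.71 where the brightest differed by 0.34.

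Of the 11 tested genes of the LPS receptor complex and its adaptors limma called none, with a median of −0.18. None of 11 is near the share of 9.05% called over all tested genes. With the probe sets of a gene averaged 1 was called lower. A second probe set of Irak1, a kinase of the MyD88 branch, fell by 0.86 ± 0.16 (limma adjusted p = 0.00971), where the brightest differed by −0.43. Tlr4 itself read 9.18, 9.12 and 8.82 on medium and 8.70, 8.87 and 8.53 on LPS, with overlap (−0.34 ± 0.18, limma adjusted p = 0.243). Tlr2, which senses bacterial lipoproteins, differed by 0.88 ± 0.31 (limma adjusted p = 0.089). Cd14, the LPS co-receptor, read 4.76, 4.40 and 4.43 on medium and 4.46, 5.63 and 4.69 on LPS. Among 23 tested genes of MAP kinase phosphatases and AP-1, EGR and ATF factors 1 fell, Dusp1, by 0.50 ± 0.13, a call lost under median centring. That count is near the 5.68% called lower over all tested genes.

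Endothelial adhesion molecules were high in medium already, and Sele, Vcam1 and Icam1, known LPS targets, did not pass the test. Sele, E-selectin, which slows rolling leukocytes, read 10.87, 10.94 and 11.04 on medium and 11.84, 11.77 and 11.80 on LPS (0.85 ± 0.30, limma adjusted p = 0.0891). Vcam1 read 10.88, 10.43 and 10.48 against 11.48, 11.34 and 11.10 (0.71 ± 0.25, limma adjusted p = 0.0909), and Icam1 read 11.44, 11.28 and 11.35 against 11.77, 11.71 and 11.54 (0.32 ± 0.12, limma adjusted p = 0.121). In all 3 genes every LPS array lay above every medium array, as in 15.7% of all tested genes. Of 11 tested adhesion molecules 1 was called, Icam2, which fell by 0.83 ± 0.22 and lost its call with cyclic loess. That count is near the 9.05% called over all tested genes. In the fit of the LPS and medium arrays alone 2 adhesion molecules were called higher and none lower, and with an intensity trend and robust spread 1 was called higher and 2 lower.

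Other single genes that rose came from matrix remodelling, redox defence and coagulation. Mmp13, a collagenase, read 4.56, 4.35 and 3.29 on medium and 7.02, 8.10 and 7.77 on LPS, a rise of 3.57 ± 0.34 (limma adjusted p = 0.000392). It was the 1 riser among 15 tested metalloproteinase genes, and Mmp2, a gelatinase, fell by 0.88 ± 0.20. Sod2, mitochondrial superoxide dismutase and an NF-kB target, read 9.24, 9.39 and 9.08 against 10.88, 10.68 and 9.97, a rise of 1.27 ± 0.22 (limma adjusted p = 0.00739). Slc7a11, the cystine transporter, rose by 1.68 ± 0.43, and Osgin1, another NRF2 target, fell by 1.08 ± 0.25. Plau, urokinase, rose by 0.98 ± 0.20. F2r, the thrombin receptor, fell by 0.69 ± 0.13 and Vwf, von Willebrand factor, by 0.66 ± 0.17, a call lost under median centring. Marcks, an actin-binding substrate of protein kinase C, rose by 1.77 ± 0.21, and Tnfrsf11b, osteoprotegerin, by 1.61 ± 0.27.

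Genes of iron export, lipid uptake and cholesterol export were among the falls. Slc40a1 encodes ferroportin, the iron exporter. It read 6.31, 6.41 and 6.43 on medium and 3.93, 4.43 and 4.01 on LPS, a fall of 2.27 ± 0.31 (limma adjusted p = 0.00211). The LPS arrays lay below the 40th percentile, so the fall reached background. Its other probe set, dimmer in medium, differed by −1.06 (limma adjusted p = 0.193). Cp, ceruloplasmin, the copper oxidase that works with ferroportin, read 8.14, 7.98 and 7.89 against 6.61, 6.32 and 6.05, and fell by 1.68 ± 0.17 (limma adjusted p = 0.000392). These were the 2 calls among 11 tested iron and heme genes (median −0.31). Fabp5, a fatty acid chaperone, read 8.93, 8.82 and 9.16 against 7.13, 7.02 and 6.96, and fell by 1.94 ± 0.24 (limma adjusted p = 0.00132). Slc40a1, Cp and Fabp5 were called whichever array was left out and with either marker covariate. Of 18 tested fatty acid and PPAR genes 4 fell and none rose (median −0.21), with Lpl, lipoprotein lipase, lower by 1.41 ± 0.29. Fabp4, another fatty acid chaperone, differed by −0.47 on its brightest probe set (limma adjusted p = 0.147) and fell by 1.05 and 0.80 on its other 2. Cd36, a fatty acid and oxidized lipid receptor, read 7.60, 7.65 and 7.58 on medium and 4.89, 6.68 and 6.94 on LPS, so LPS replicate 3 carried much of its fall of 1.44 ± 0.40, and the call was lost with either other scaling. Of 8 tested LXR and cholesterol export genes 2 fell, Mylip by 1.33 ± 0.30 and Abcg1, a cholesterol exporter, by 1.04 ± 0.26 (median −0.47).

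Some complement genes and macrophage markers fell. Of 14 tested complement genes 4 fell and none rose (median −0.55). C4b, complement component 4, read 7.10, 7.45 and 6.18 on medium and 5.18, 4.60 and 4.63 on LPS, a fall of 2.11 ± 0.39 (limma adjusted p = 0.00985). Serping1, the C1 inhibitor, fell by 1.30 ± 0.32. C1qc fell by 1.42 ± 0.30 and C1qb by 0.67 ± 0.17, a call lost under median centring. Both encode chains of C1q, made chiefly by macrophages, and both also stand in the macrophage list. Of the 16 tested macrophage and dendritic cell markers 5 fell and 1 rose (median −0.66): Cd68, a lysosomal marker, read 6.69, 6.86 and 6.93 against 5.05, 6.19 and 5.97, a fall of 1.09 ± 0.24 (limma adjusted p = 0.0213). Tyrobp, a signalling adaptor of myeloid cells, fell by 1.12 ± 0.25 and Itgax, the integrin CD11c, by 1.11 ± 0.27. Fcgr1, the high-affinity antibody receptor and itself interferon-induced, rose by 1.12 ± 0.22. Lgals3, galectin-3, abundant in macrophages, read 9.21, 9.28 and 9.01 against 6.95, 8.04 and 7.91, a fall of 1.53 ± 0.25 (limma adjusted p = 0.00609). With the smooth muscle or the mesothelial marker mean of each array as a covariate, no complement gene and no macrophage marker was called lower. The median difference of the complement list was then −0.59 and −0.37, and that of the macrophage list −0.63 and −0.73, while the median standard error over all genes grew 1.34 and 1.37 times.

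The prostaglandin-degrading enzyme Hpgd and the cornified envelope gene Sprr1a had the largest called falls, and both were highest on medium replicate 10. Sprr1a read 8.19, 9.58 and 7.70 on medium and 6.29, 4.02 and 4.02 on LPS, a fall of 3.71 ± 0.93 (limma adjusted p = 0.0324) that was called in 1 of 6 fits with 1 array left out. Hpgd read 6.30, 8.31 and 5.38 against 4.09, 3.33 and 3.72, a fall of 2.95 ± 0.64 (limma adjusted p = 0.0193). The mesothelial marker mean was also highest on that array. Upk3b, a uroplakin of mesothelium, read 8.69, 10.15 and 7.76 against 6.02, 4.12 and 5.35 (−3.70 ± 1.09, limma adjusted p = 0.0545). Wt1, a mesothelial transcription factor, read 5.25, 7.63 and 4.45 against 4.24, 3.94 and 3.85. None of the 6 mesothelial markers was called by limma. All 6 were lower on every LPS array than on any medium array, as were 19.1% of all tested genes. The markers were read on the same arrays, so they are not 6 separate observations. Alternatives called some of these markers lower: 1 with the LPS and medium arrays alone, 2 with the filter at the 60th percentile and 2 with an intensity trend and robust spread. With their mean as a covariate Hpgd differed by −0.97 (limma adjusted p = 0.157) and Sprr1a by −1.17 (limma adjusted p = 0.43). The part of mesothelial cells in these falls was not tested.

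Of 21 tested genes of endothelial junctions and surface 4 fell and none rose (median −0.40), and 6 of the 21 differences were above 0. Cdh5 and Pecam1 did not pass the test. Plvap, the protein of fenestral diaphragms, read 8.48, 8.40 and 8.89 on medium and 7.68, 7.69 and 7.23 on LPS, a fall of 1.06 ± 0.19 (limma adjusted p = 0.00929). Egfl7, a secreted vascular factor, fell by 1.06 ± 0.19, Clec14a, an endothelial lectin, by 1.29 ± 0.26, and the transcription factor Tal1 by 1.32 ± 0.32. Cdh5, VE-cadherin, differed by 0.05 ± 0.22 and Pecam1 by 0.03 ± 0.12. Notch1, the receptor that keeps arterial endothelium quiescent, read 10.22, 10.10 and 10.17 against 9.26, 9.06 and 9.29, a fall of 0.96 ± 0.13 (limma adjusted p = 0.002). Its ligand gene Dll1 fell by 0.61 ± 0.17, a call lost under both other scalings, and no other of the 17 tested Notch genes was called on its brightest probe set. Over all tested genes 5.68% were called lower. A further probe set of the ligand gene Dll4 fell by 0.75 (limma adjusted p = 0.0223), and 1 of the 4 further probe sets of Gja1, connexin 43, rose by 0.96 (limma adjusted p = 0.0493). Efna1, ephrin-A1, fell by 1.53 ± 0.21. Pgf, placental growth factor, fell by 1.41 ± 0.25 and Ptprb, the endothelial phosphatase VE-PTP, by 0.82 ± 0.20. Over the whole endothelial marker list 5 of 16 tested genes fell, and the list mean was 8.53 to 8.66 on medium and 7.98 to 8.36 on LPS. With smooth muscle markers as a covariate no endothelial marker was called and the median difference of the list moved from −0.53 to −0.22. With mesothelial markers as a covariate 3 were still called lower, and the median was −0.17. The part of a changed share of endothelial RNA was not tested.

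Among growth, matrix and replication genes calls went in both directions. Igfbp3, which binds insulin-like growth factors, read 7.44, 8.74 and 6.48 on medium and 4.59, 6.22 and 5.78 on LPS, a fall of 2.02 ± 0.52 (limma adjusted p = 0.0343). Like Hpgd and Sprr1a it was highest on medium replicate 10. It was the 1 call among 7 tested insulin-like growth factor and binding protein genes, and all 7 differences were below 0 (median −0.78). With the smooth muscle or the mesothelial covariate no gene of that list was called, and the medians were −0.39 and −0.27. Of 21 tested collagen, laminin and basement membrane genes 5 fell and 1 rose, with Lamb1 lower by 1.71 ± 0.38, Hspg2, perlecan, by 1.50 ± 0.28 and Lamc1 higher by 0.70 ± 0.18. Among 23 tested BMP and TGF-beta genes Bmp4 fell by 0.72 ± 0.15, Bmp6 by 0.59 ± 0.16 (lost under both other scalings), and Inhba, the activin A subunit, rose by 0.79 ± 0.16. The replication licensing genes Cdt1 and Cdc6 fell. Cdt1 read 7.48, 7.48 and 7.22 against 5.33, 6.11 and 6.11, a fall of 1.54 ± 0.26 (limma adjusted p = 0.00651), and Cdc6 fell by 1.48 ± 0.22. Pfkfb3, a driver of glycolysis in endothelial cells, fell by 0.97 ± 0.15, and Chac1, a target of the unfolded protein response, by 0.94 ± 0.17. The smooth muscle genes Lmod1, Myh11 and Tpm2 rose, by 0.90 ± 0.24, 0.86 ± 0.23 (a call lost with cyclic loess) and 0.81 ± 0.21. These were the 3 calls among 14 tested smooth muscle markers, and all 14 differences were above 0 (median 0.77). The mean of that marker list was also higher on LPS, as given above. Limma called no gene among the 14 tested of MHC class I presentation, the 11 of the inflammasome and cell death, the 9 of sterol synthesis or the 10 heat shock genes, read on their brightest probe sets. With 9.05% called over all tested genes, no call in a list this short says little about it. Of the 4 further probe sets of H2-D1, an MHC class I heavy chain, 1 rose, by 0.58 (limma adjusted p = 0.0197).

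**Figure D5:**
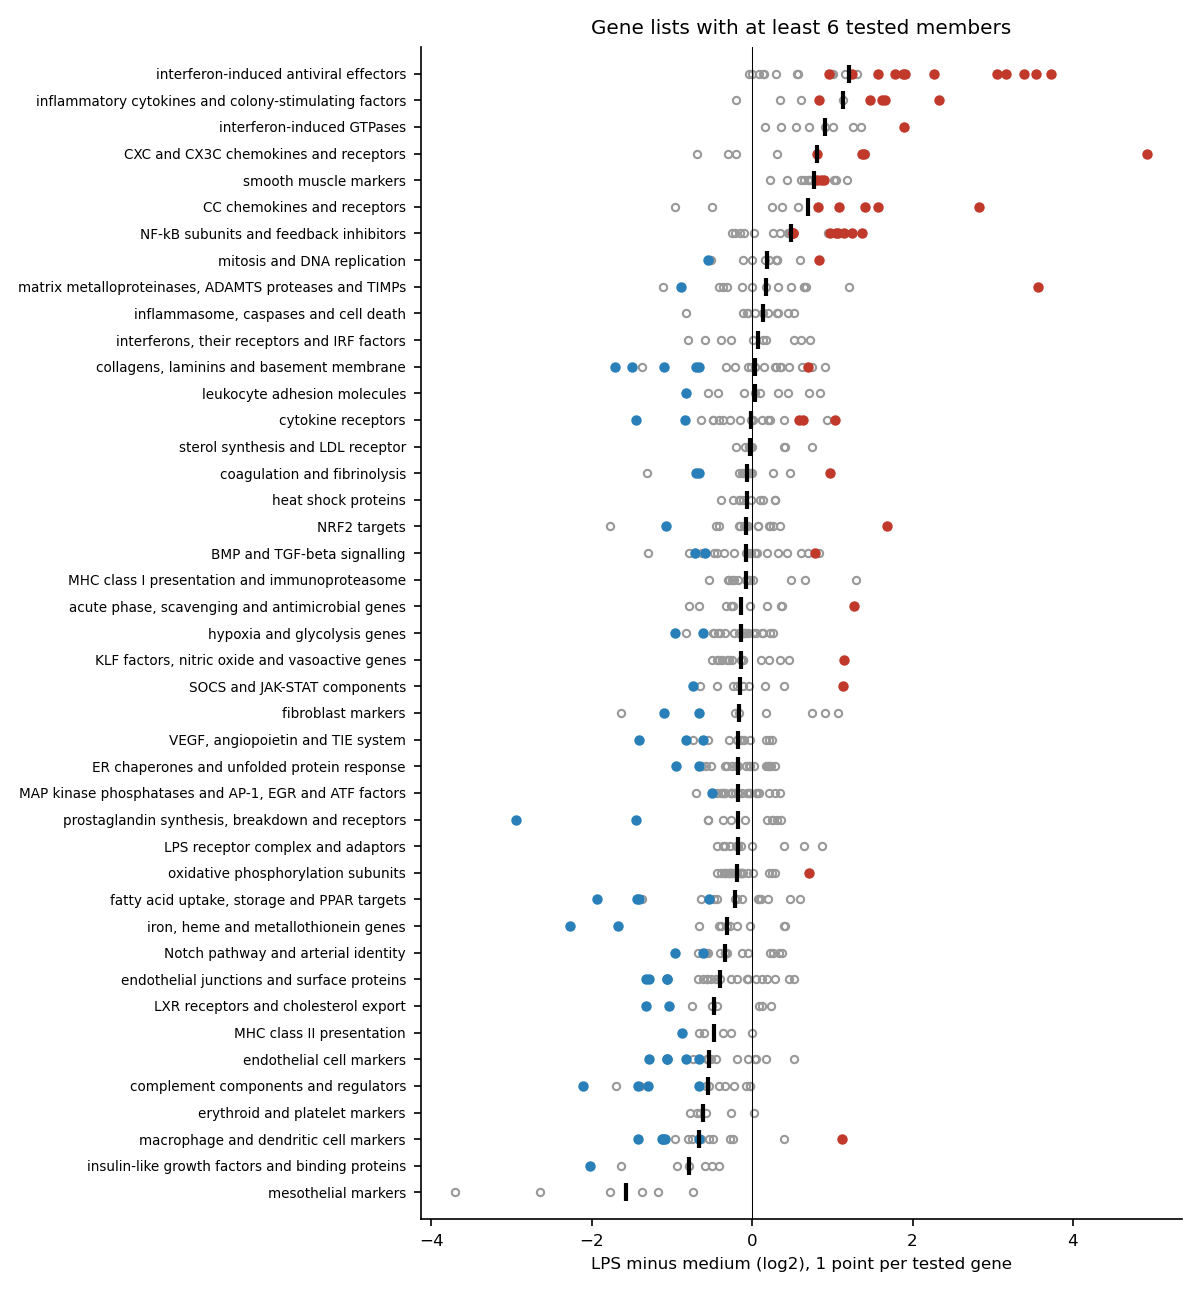
LPS minus medium (x axis, log2) for every tested gene of the lists with at least 6 tested members, 1 row per list, ordered by median (black bar). Red points were called higher, blue called lower and open points were not called. Antiviral effectors top the order (median 1.21, 12 red points) and mesothelial markers close it (median −1.57, none called).

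LPS was also set directly against the other stimuli. The medium level does not enter these differences, but the medium arrays do enter the shared estimate of spread behind each ± and p. These contrasts share the LPS arrays with the comparison above and are not independent of it. LPS differed from oxLDL in 383 genes (5.07%; 167 higher, 2.21%, and 216 lower, 2.86%) and from oxPAPC in 653 (8.65%; 354 higher, 4.69%, and 299 lower, 3.96%). Of the 24 tested antiviral genes 12 were higher than with oxLDL and 15 higher than with oxPAPC, and of 18 NF-kB genes 6 and 10. Cxcl10 averaged 4.44 with oxLDL and 5.26 with oxPAPC, so LPS stood above them by 5.11 ± 0.34 and 4.29 ± 0.34 (limma adjusted p = 2.54e-05 and 4.47e-05). Ccl5 was higher by 3.23 ± 0.23 and 3.25 ± 0.23. Il1b averaged 8.10 with oxLDL and 5.88 with oxPAPC, and LPS stood higher by 1.58 ± 0.28 and 3.81 ± 0.28. Vcam1, not called against medium, was higher than with oxLDL by 1.07 ± 0.25 (limma adjusted p = 0.032) and than with oxPAPC by 1.66 ± 0.25 (limma adjusted p = 0.0024).

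Several leading falls were not distinguished from the other stimuli. Fabp5 averaged 7.61 with oxLDL and 6.78 with oxPAPC, and LPS differed from them by −0.58 ± 0.24 and 0.26 ± 0.24 (limma adjusted p = 0.18 and 0.54). C4b averaged 5.31 and 4.59, with LPS differing by −0.51 ± 0.39 and 0.21 ± 0.39. Against the same medium arrays, the complement, macrophage and endothelial marker lists had medians of −0.93, −0.84 and −0.82 with oxPAPC. With oxLDL they were −0.75, −0.49 and −0.06. LPS against either stimulus called no complement gene. Against oxPAPC 1 macrophage marker was higher, and 4 endothelial markers were higher and 1 lower. Against oxLDL each of these 2 marker lists had 1 higher and 2 lower. A p that misses the threshold does not show that the stimuli act alike. Slc40a1 was different: it averaged 5.66 with oxLDL and 7.82 with oxPAPC, and LPS lay below by 1.54 ± 0.31 and 3.70 ± 0.31 (limma adjusted p = 0.018 and 6.1e-05). Cdt1 lay below oxLDL by 1.39 ± 0.26 and below oxPAPC by 1.22 ± 0.26. Pi15, a secreted peptidase inhibitor that rose by 1.87 ± 0.19 against medium, averaged 8.01 with oxPAPC and did not differ there beyond its error (0.09 ± 0.19).

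Fresh intima places the LPS levels against tissue that was never incubated, where incubation, LPS and any difference in age cannot be told apart. LPS differed from fresh wild type in 4545 of 7859 tested genes (57.8%; 1861 higher, 23.7%, and 2684 lower, 34.2%), and medium alone differed in 4492 (57.2%; 24.2% higher and 33.0% lower). Both contrasts use the same fresh arrays. Of 24 tested antiviral genes medium was lower than fresh in 11 and higher in 1, beside 33.0% and 24.2% of all genes. LPS was higher than fresh in 11 of them and lower in 1, beside 23.7% and 34.2%. Ifit3 ranged over the 6 fresh arrays from 7.85 to 9.50 with a median of 8.36. Medium lay below fresh by 1.95 ± 0.37 and LPS above it by 1.11 ± 0.37 (limma adjusted p = 0.000248 and 0.0157). Gbp3 had a median of 8.38 and a lowest array at 7.72 in fresh tissue, and LPS differed from the fresh mean by −0.08 ± 0.44 (limma adjusted p = 0.886). Its rise over medium thus ended at a level not distinguished from fresh.

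Il1b was higher in medium than in fresh tissue and higher again with LPS. It ranged from 4.00 to 4.57 with a median of 4.28 on the fresh arrays, and medium stood above fresh by 3.74 ± 0.22 and LPS by 5.39 ± 0.22. Sele ranged from 6.63 to 9.08 with a median of 8.09, and stood higher by 2.98 ± 0.38 in medium and 3.83 ± 0.38 with LPS. Cxcl10 ranged from 3.93 to 5.02 with a median of 4.08, was not called between medium and fresh (0.29 ± 0.31, limma adjusted p = 0.43), and stood 5.22 ± 0.31 higher with LPS. Slc40a1 ranged from 3.87 to 5.16 with a median of 3.93. It was higher in medium by 2.19 ± 0.30 and with LPS differed from fresh by −0.07 ± 0.30 (limma adjusted p = 0.846). Cp went the other way, with medium differing from fresh by −0.01 ± 0.15 and LPS lower by 1.68 ± 0.15. Lgals3 stood 3.63 ± 0.26 above fresh in medium and 2.10 ± 0.26 above it with LPS, so its fall left it above the fresh level.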

How the data were processed

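RNA of scraped aortic endothelial cells was hybridised to Affymetrix arrays. The deposited values are log2 signals, for which the submitters' processing notes name RMA and affy. Versions, and whether the 22 arrays went through RMA as 1 set, are not given in the sources used here. Quantile normalization, a step of RMA, hides a shift of most genes in 1 direction.

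The platform annotation gave a single symbol to 18003 of 22626 probe sets, more than 1 to 287 and none to 4336, and RefSeq GRCm38.p6 held 17977 of the first. For each of 11807 genes the brightest probe set on average was kept. Genes that exceeded an array's 40th percentile on 3 or more arrays were tested with limma 3.58.1 (R 4.3.3, lmFit and eBayes, two-sided, Benjamini-Hochberg). The 12 incubated arrays were fitted together. The fresh contrast used the 18 wild-type arrays. Python 3.11.15 made the summaries. No per-sample column was left unmapped.

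The comparison, the members and the gene lists were chosen with earlier results of these data known. The lists held 879 entries in 46 lists, of which 740 were measured, 5 through an older symbol. Genes named were the 25 largest rises and 25 largest falls called, members of those lists, and genes with a second probe set called in the opposite direction. 

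Tested on simulated data for LPS against medium (7550 genes), the fit found 17.9% of log2 changes of 0.5, 67.2% of those of 1 and 95.5% of those of 2, and 12 of its 132 calls were false. The simulated noise was independent between genes, 200 genes were changed, and no shift of cell type markers was built in. These figures therefore do not cover shifts that many genes share between the real groups. Alternatives covered scaling, filter, probe set summary, spread estimate, marker covariates and single arrays left out.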

Additional observations from a re-analysis of the deposited data

How the results depend on the processing

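For LPS against medium the count of 683 stayed between 591 and 817 under other scalings, filters, probe set summaries, spread estimates and the fit of the 6 arrays alone. The split moved with median centring, to 435 higher and 273 lower. When the smooth muscle marker mean entered as covariate, 181 genes were called (66 higher, 115 lower), and with the mesothelial markers, a covariate added after seeing the data, 209 (82 higher, 127 lower). The median standard error grew 1.34 and 1.37 times, since both covariates differ between the groups. Under the smooth muscle covariate the count of antiviral genes called higher was 12, as in the reported fit, and that of NF-kB genes 3 in place of 8. LPS against oxPAPC gave 380 calls (209 higher, 171 lower) with the smooth muscle covariate.

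Leaving out 1 array moved the count for LPS against medium to between 235 (without medium replicate 9) and 389 (without LPS replicate 10), with 78 to 153 higher and 157 to 236 lower. Without LPS replicates 3 and 4 it was 316 and 269, and without medium replicates 10 and 11 it was 330 and 314. LPS against oxLDL gave 132 to 266, with 66 to 149 higher and 53 to 117 lower: without LPS replicates 3, 4 and 10 it was 171, 132 and 240, and without oxLDL replicates 15 and 16 it was 158 and 139. LPS against oxPAPC gave 247 to 1207, with 141 to 680 higher and 98 to 527 lower: without LPS replicates 3 and 4 it was 321 and 266, and without oxPAPC replicates 11, 12 and 13 it was 257, 247 and 1207. LPS against fresh wild type stayed between 4038 and 4481. Of the 25 largest rises 21 were called whichever array was left out, and of the 25 largest falls 15. Of 124 called genes in the lists or among the largest changes, 62 to 84 kept their call in each such fit, 49 with the smooth muscle covariate and 57 with the mesothelial one, and none reversed. Among genes named in the text, the calls of Slc7a11, Tnip1, Dusp1, Ccrl2, Icam2, C1qb, Serping1, Vwf, Tal1, Dll1, Bmp6, Lamc1, Myh11, Lmod1, Tpm2 and Itgax held in at most 1 of the 6 fits.

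Called genes had 377 further probe sets, of which 287 shared the direction. For 3 genes a second probe set was called the opposite way: Klc1 (0.77 against −0.53), Cdc5l (0.49 against −0.56) and Epb41l2 (0.55 against −0.62). Among genes named in the text, a further probe set of Samhd1 differed by −0.24, of Pfkfb3 by −0.10, of Clec14a by −0.27, of Hspg2 by −0.27, of Lamc1 by 0.15, of Lpl by −0.37 and of Myh11 by 0.29, none of them called. No paired analysis was possible because the LPS and medium arrays share only the replicate number 10, and the other groups compared share fewer than 2 numbers. Genes near background in 1 group have folds that depend on that background.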
